A study of Mus musculus with 1152 samples.

Results

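Gpr17-high and Gpr17-low oligodendrocyte precursors were compared within a single set of sorted brain cells. Of 1152 wells in the series, 857 held at least 50000 reads, and 349 of these belonged to the set whose column names begin with 600s_182s. Precursors were taken there as wells with at least 100 CPM of Pdgfra (CPM is the count of a gene scaled to the total reads of its well), at least 200 CPM of Cspg5 and of Ptprz1, below 200 CPM of Enpp6 and below 5% of reads from mitochondrial genes. The rule kept 173 of the 384 wells of the set. These 173 cells were ranked by Gpr17, and the 57 highest (Gpr17-high) were compared with the 57 lowest (Gpr17-low), 114 cells in all, while the 59 between them served as a middle group.

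All cells came from the brains of adult C57BL/6 mice of both sexes. They carried either Pdgfra-H2BGFP, which places a green fluorescent protein in nuclei of cells that use the Pdgfra gene, or Tagl-CREERT2;Ai14, in which an inducible recombinase switches on a red fluorescent protein. Vascular fragments were pulled from digested brain with beads against CD31, a surface protein of endothelial cells, and fluorescent cells were then sorted into plates and read by SMART-seq2, a method that amplifies full-length cDNA of single cells. The labels tie no well to an animal, a line or a plate, so all wells counted as 1 sample. No test between groups was therefore possible. Every ratio below describes these cells. Intervals of levels are exact 95% intervals that cover counting error only, and those of shares of cells cover the sampling of cells only. Reads are not independent molecules, since SMART-seq2 as deposited here carries no molecular identifiers.

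Gpr17 encodes a G protein-coupled receptor of the oligodendrocyte lineage, which is related to the purinergic and cysteinyl leukotriene receptors. Oligodendrocyte precursors divide throughout adult life, and a share of them leaves the cell cycle and matures into myelinating cells. Gpr17 is known to appear in late precursors, to peak in committed, premyelinating cells and to be switched off in mature oligodendrocytes, and mice without the receptor myelinate early.

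The groups were chosen by their Gpr17 CPM, so its values are a description and support nothing. All 173 precursors held reads of Gpr17, from 57.7 CPM (12 reads of 207966) to 6544 CPM. The Gpr17-high cells had a median of 2365 CPM, the middle cells 949 CPM and the Gpr17-low cells 227 CPM. The last cell inside the high group stood at 1436 CPM and the first outside it at 1308 CPM. At the lower border, the last cell outside the low group stood at 499.7 CPM and the first inside it at 488 CPM. The ranking was continuous, with no gap at either border. Wells of the same set with Enpp6 of at least 200 CPM, called committed wells here after that marker of newly formed oligodendrocytes, had a median of 2579 CPM of Gpr17 in 75 wells. Mature wells, with Mog of at least 200 CPM, Enpp6 below 200 CPM and Pdgfra below 100 CPM, had a median of 220 CPM in 52 wells. Gpr17 in the Gpr17-high precursors thus lay near the level of the committed wells, and in the Gpr17-low precursors near that of the mature wells.

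**Figure D1:**
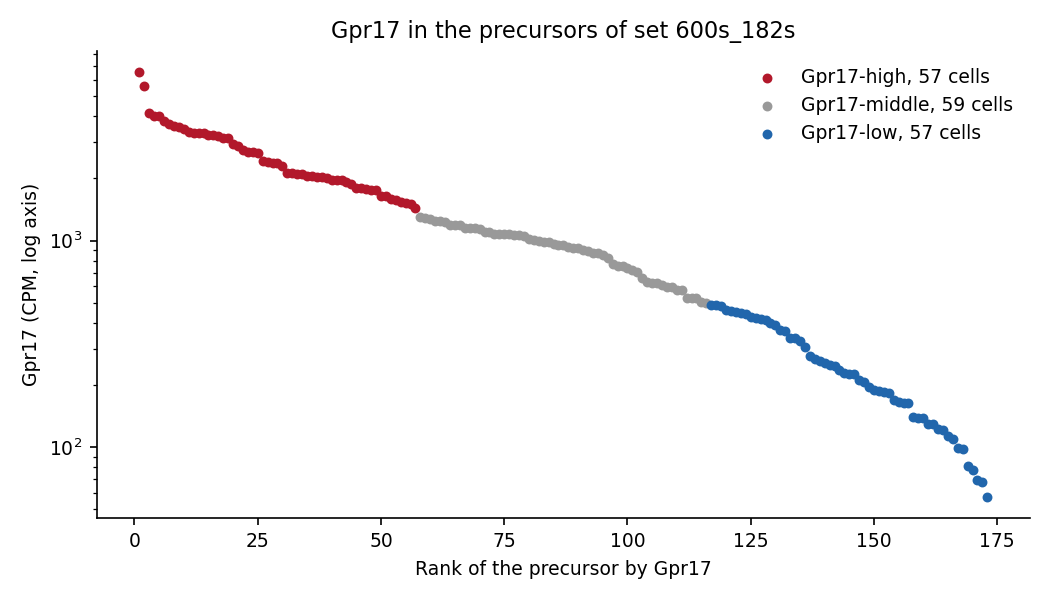
Gpr17 in each of the 173 precursors of set 600s_182s, in CPM on a log axis, against the rank of the cell. Colours mark the 57 Gpr17-high, 59 middle and 57 Gpr17-low cells, and the values run from 6544 to 57.7 CPM without a break at the group borders of 1436 and 488 CPM.

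The groups were alike in depth. Median reads per cell were 239534 in Gpr17-high, 279962 in middle and 216874 in Gpr17-low cells, within a range of 54417 to 1061290 over the 173 cells. After each cell was thinned to 50000 reads, the median number of genes with reads was 4260 in high and 4478 in low cells. Mitochondrial genes took a median of 1.72% of reads in high and 1.76% in low cells. Over the 173 cells the Spearman rho of Gpr17 with total reads was 0.10, with the number of genes -0.04 and with the mitochondrial share -0.09.

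Both groups carried the identity of precursors. Of 20 precursor identity genes that the selection did not use, all reached 10 CPM and none differed 2-fold between the groups, with a median log2 ratio of 0.13. Over all genes, 27.6% differed 2-fold from 10 CPM up, but only 4.89% did from 200 CPM up. The absence of a 2-fold difference is thus common among genes at higher levels. Cspg4, the NG2 proteoglycan by which precursors are often recognised, stood at 1262 CPM in the summed reads of the high cells and 1089 CPM in those of the low cells, and thinned reads of it were found in 100% and 98.2% of cells. Olig1, Olig2 and Sox10, transcription factors of the whole lineage, had log2 ratios of 0.06, 0.29 and 0.34. Among the genes of the selection itself, Pdgfra had a summed level of 1216 CPM in high and 1396 CPM in low cells, Cspg5 1589 against 1908 CPM, Ptprz1 3306 against 3062 CPM and Enpp6 36.1 against 44.6 CPM. None of these 4 differed 2-fold, and their rho with Gpr17 lay between -0.19 and 0.18.

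Across all genes other than Gpr17, the ratio of summed CPM with 1 CPM added passed 2-fold for many genes, most of them weakly detected. Of 11513 genes with at least 10 CPM in the higher group, 1523 (13.2%) were 2-fold higher and 1653 (14.4%) 2-fold lower in Gpr17-high cells, together 27.6%. Among the 6116 genes with at least 50 CPM, 557 (9.11%) were higher and 550 (8.99%) lower. Among the 1104 genes with at least 200 CPM, 34 (3.08%) were higher and 20 (1.81%) lower, together 4.89%. Among the 220 genes with at least 500 CPM, 3 (1.36%) were higher, namely Sh3bp4, Mfsd2a and Timp3, and 0 were lower. The median log2 ratio over the genes at 10 CPM was -0.04. Scaling by median-of-ratios size factors moved this median to 0.07 and gave 1790 genes higher and 1422 lower.

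**Figure D2:**
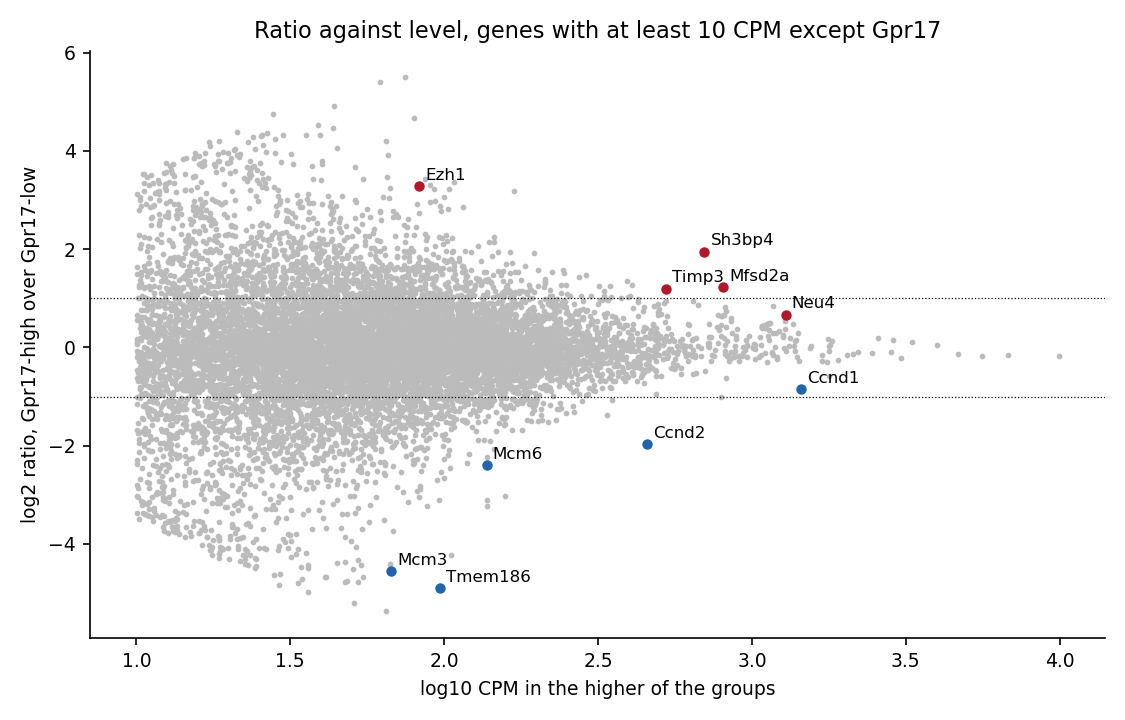
Log2 ratio of summed CPM, Gpr17-high over Gpr17-low, against the log10 CPM of the higher group for each gene with at least 10 CPM except Gpr17. Dotted lines mark 2-fold, labelled genes are described in the text, and the scatter narrows with level, so that 3 of 220 genes at 500 CPM or more lie beyond a line.

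The genes whose level over all 173 precursors went most closely with Gpr17 were few. Of 5544 genes with at least 20 CPM and thinned reads in at least 30% of cells, 4 had a Spearman rho of 0.3 or more and 2 a rho of -0.3 or less. The extremes were 0.37 and -0.37, and the median was -0.02. These correlations describe cells that share 1 column name prefix and are given without a test.

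Sh3bp4, which encodes an SH3 domain protein of endocytosis, had the widest summed ratio of the 4 genes with rho of 0.3 or more. Single Gpr17-high cells had from 8.01 to 2130 CPM with a median of 405 CPM, middle cells a median of 229 CPM, and Gpr17-low cells from 0 to 1303 CPM with a median of 50.2 CPM. The groups overlapped widely, and the low group held more cells near the floor. In summed reads the level was 700 CPM (687 to 713) in high, 390 CPM in middle and 180 CPM (173 to 187) in low cells, a log2 ratio of 1.95, with rho 0.36. The committed wells had 669 CPM and the mature wells 31.5 CPM.

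Mfsd2a, the transporter that carries lysophosphatidylcholine with omega-3 fatty acids into cells, had rho 0.37. The high cells ran from 8.52 to 2199 CPM with a median of 600 CPM, and the low cells from 10.2 to 3296 CPM with a median of 98.4 CPM. The cell with the highest value was thus a Gpr17-low cell, although the median was higher in the high group. Summed levels were 804 CPM (791 to 818) in high, 423 CPM in middle and 344 CPM (334 to 353) in low cells, a log2 ratio of 1.22. The committed wells had 886 CPM, which exceeded both precursor groups.

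Timp3, a matrix-bound inhibitor of metalloproteinases, stood at 527 CPM (516 to 538) in high, 258 CPM in middle and 229 CPM (221 to 237) in low cells, a log2 ratio of 1.20. Its single-cell medians were 361, 116 and 61.5 CPM, and the ranges, 3.03 to 3271 CPM in high and 0 to 1598 CPM in low cells, overlapped. Syn3, a synapsin gene that was also among the 10 highest by rho (0.29), had a log2 ratio of 1.18. The whole of Timp3, 49135 bases, lies inside Syn3 on the opposite strand, and 1733 exon bases are shared, 21.3% of the exon bases of Timp3. The strand setting of the counting is not given in the labels, so reads in the shared bases cannot be assigned to either gene, and the values of both are uncertain.

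Tmem255b, which encodes a membrane protein, had summed levels of 393, 269 and 153 CPM in high, middle and low cells and rho 0.31. Its single-cell medians were 322, 170 and 31.8 CPM. It differed from Sh3bp4 and Mfsd2a in the committed wells, where it stood at 14.9 CPM. Prkcq, the theta isoform of protein kinase C, had 318, 216 and 133 CPM with a rho just below 0.3. The other 3 genes completed the highest 10 apart from Lims2: Traf4, an adaptor of tumour necrosis factor receptors (log2 ratio 0.74), Ncald, a neuronal calcium sensor (0.86), and Ehd3, a protein of endocytic recycling (1.05).

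Lims2, which encodes a LIM domain protein of cell adhesion sites, had rho 0.37 with a log2 ratio of 0.44. In the GRCm38 annotation Gpr17 lies at chr18:31942997-31949636 on the minus strand and Lims2 at chr18:31922290-31958619 on the plus strand. All 6640 bases of Gpr17 fall inside Lims2, and 188 exon bases are shared, 3.62% of those of Gpr17 and 6.14% of those of Lims2. With the strand setting unknown, reads of the pair cannot be told apart there, and the rho of Lims2 is uncertain for that reason. Single-cell medians of Lims2 were 281 CPM in high, 246 CPM in middle and 80.9 CPM in low cells.

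**Figure D3:**
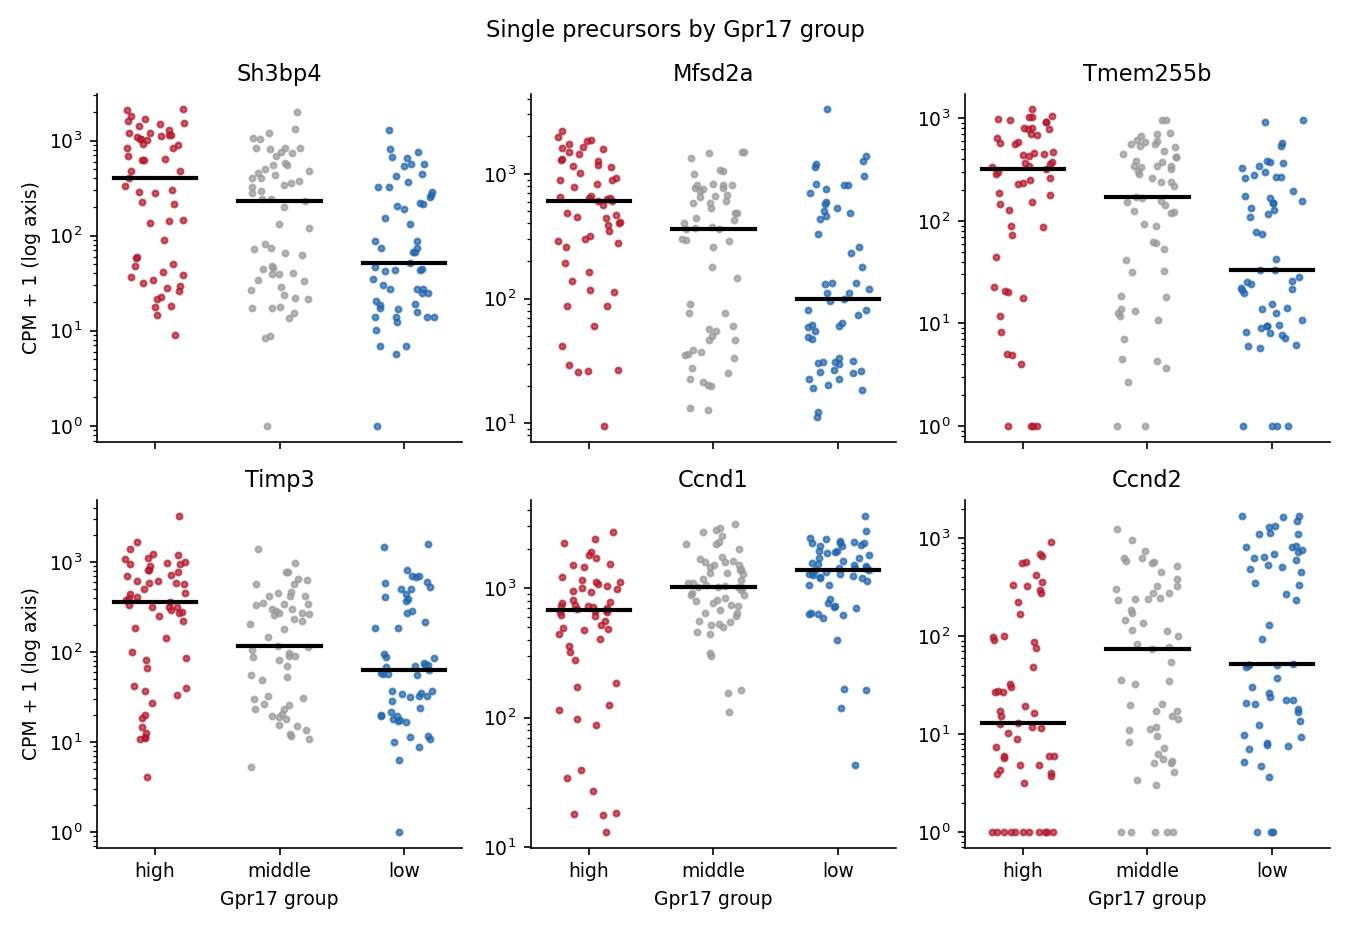
CPM plus 1 on log axes for 6 genes in each of the 57 Gpr17-high, 59 middle and 57 Gpr17-low precursors, with bars at the median of each group. The medians of Sh3bp4, Mfsd2a, Tmem255b and Timp3 step down from high to low, that of Ccnd1 steps up, and the points of the groups overlap in every panel.

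The genes that ran against Gpr17 were led by D-type cyclins, the partners of the kinases that commit a cell to division. Ccnd1 had the lowest rho of all, -0.37. Single high cells had from 12.1 to 2694 CPM with a median of 671 CPM, and low cells from 42.4 to 3617 CPM with a median of 1386 CPM. The groups overlapped, and the lowest values of Ccnd1 lay in the high group, as the plot of single precursors shows. Summed levels were 804 CPM (790 to 817) in high, 1207 CPM in middle and 1441 CPM (1422 to 1460) in low cells, a log2 ratio of -0.84, which does not reach 2-fold.

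Ccnd2 had rho -0.31 and summed levels of 116 CPM (111 to 122) in high, 230 CPM in middle and 457 CPM (446 to 468) in low cells, a log2 ratio of -1.97. Thinned reads of it were found in 45.6% of the high and 77.2% of the low cells. Its single-cell medians, 12 CPM in high, 72.2 CPM in middle and 50.8 CPM in low cells, did not step evenly. Ccnd3, the remaining D-type cyclin, had 302 against 396 CPM. In the committed wells Ccnd1 stood at 39.5 CPM and Ccnd2 at 17.1 CPM, below both precursor groups.

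The other genes among the 10 lowest by rho had values from -0.29 to -0.26. They were Adamts1, a secreted metalloproteinase (26.1 CPM in high, 120 CPM in low cells), the amino acid transporter gene Slc7a6 (10.3 against 95.9 CPM), Tub (37.0 against 96.2 CPM), Agap1, a regulator of Arf GTPases (73.5 against 208 CPM), the phosphatase gene Ptp4a2 (65.1 against 142 CPM), Ptma, and the ribosomal protein genes Rpl37a and Rps15. The last 3 differed by less than 0.6 on the log2 scale in summed reads.

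The proliferation list showed the widest shift of the 19 functional lists. Of its 18 genes, 13 were 2-fold lower in Gpr17-high cells and 0 higher, where 14.4% of all genes were lower, and the median log2 ratio was -1.39 against -0.04 over all genes. Mki67, the usual marker of dividing cells, had 28.0 CPM in high, 107 CPM in middle and 98.2 CPM in low cells. Top2a, the topoisomerase of dividing cells, had 53.0, 158 and 158 CPM. Birc5, a protein of the mitotic spindle, had 6.98, 38.4 and 44.5 CPM, and Tyms, which makes thymidylate for DNA synthesis, 10.2, 19.1 and 52.6 CPM. For Mki67, Top2a and Birc5 the middle group lay near the low group and the high group stood apart, while for Tyms the middle group lay nearer the high group. The ratios rested on few cells, since the single-cell median of Mki67, Birc5 and Tyms was 0 CPM in both groups and single cells reached 2014, 1008 and 925 CPM.

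Cells in division were therefore counted. A cell was taken as being in S or M phase when at least 3 of the 14 proliferation genes other than Pcna and the D-type cyclins reached 50 CPM, a rule chosen after the data were seen. It marked 1 of 57 high cells (1.75%, exact binomial 95% interval 0.0444 to 9.39%), 9 of 59 middle cells (15.3%, 7.22 to 27.0%) and 11 of 57 low cells (19.3%, 10.0 to 31.9%). The intervals cover sampling of cells only, and the rule counts genes of the list described above, so the shares are no separate evidence. Gpr17 in the 21 marked cells ran from 77.7 to 1929 CPM with a median of 488 CPM, against a median of 1062 CPM in the other 152. A broader rule asked for at least 3 of all 18 proliferation genes at 50 CPM. It marked 22 high cells (38.6%, 26.0 to 52.4%), 36 middle cells (61.0%, 47.4 to 73.5%) and 34 low cells (59.6%, 45.8 to 72.4%). The intervals under either rule compare no groups, as cells are not replicates. Without the 21 cells and with the remainder ranked again, 10 proliferation genes reached 10 CPM, 3 of them were lower and 1 higher, and the median log2 ratio was -0.71. Without the 92 cells of the broader rule, 4 genes were left with a median of -0.33. Both rules left cells out for their levels of these same genes. Fewer genes and a smaller shift were thus favoured in advance, so these medians support nothing.

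Genes of the replicative helicase, the Mcm complex that unwinds DNA in S phase, were among the lowest ratios. Mcm2 had 13.7 CPM (11.9 to 15.5) in high and 94.7 CPM (89.8 to 99.8) in low cells, and Mcm3 1.91 CPM (1.31 to 2.69) against 67.3 CPM (63.2 to 71.6), with log2 ratios of -2.71 and -4.55. Mcm4 and Mcm6, which the ratio rule named among the 15 lowest genes, had 13.8 against 138 CPM and 25.4 against 137 CPM. Mcm5 had 35.6 against 98.1 CPM, and Mcm7, looked up after the others were seen, 45.0 against 112 CPM. All 6 subunit genes were 2-fold lower in the high cells, where 14.4% of all genes were lower, but they were brought together partly for their low ratios, so this count supports nothing. In the other wells of the series, described last, Mcm2, Mcm4 and Mcm7 were also lower in Gpr17-high cells, while Mcm3 (1.65 against 0 CPM), Mcm5 (6.29 against 0 CPM) and Mcm6 (3.89 against 0.389 CPM) lay on the other side at levels under 10 CPM. The middle cells had 54.5 CPM of Mcm2, 63.7 CPM of Mcm3, 107 CPM of Mcm4, 150 CPM of Mcm5 and 124 CPM of Mcm6. Thinned reads of Mcm3 were found in 21.1% of high and 26.3% of low cells, shares that lay close together, while the highest cell was at 21.5 CPM in the high group and at 730 CPM in the low group.

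The sequences upstream of these genes are shown for 3 of the subunits because these genes had low ratios together. Each is the 250 bases before the gene's start in RefSeq, build GRCm38.p6, read 5′ to 3′ on the gene's strand. The windows are chr1:20820313-20820562 (minus strand) for Mcm3, chr8:75109259-75109508 (plus strand) for Mcm5 and chr1:128359706-128359955 (minus strand) for Mcm6. Capitals mark the letters CCAAT or its reverse complement ATTGG, a promoter box common in cell cycle genes, and the E2F letters TTTCCCGC, TTTGGCGC, TTTCGCGC or TTTGCCGC on either strand, some of which overlap each other.
Mcm3: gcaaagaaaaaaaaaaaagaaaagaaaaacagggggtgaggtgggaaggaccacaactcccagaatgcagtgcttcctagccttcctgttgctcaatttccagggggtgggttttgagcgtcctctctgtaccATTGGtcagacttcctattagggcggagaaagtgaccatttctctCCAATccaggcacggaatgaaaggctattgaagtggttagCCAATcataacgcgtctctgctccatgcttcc
Mcm5: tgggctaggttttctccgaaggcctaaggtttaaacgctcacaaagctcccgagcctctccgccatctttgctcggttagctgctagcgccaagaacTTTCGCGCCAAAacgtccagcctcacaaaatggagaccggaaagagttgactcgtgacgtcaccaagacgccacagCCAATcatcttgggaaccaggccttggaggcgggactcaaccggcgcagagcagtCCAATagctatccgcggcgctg
Mcm6: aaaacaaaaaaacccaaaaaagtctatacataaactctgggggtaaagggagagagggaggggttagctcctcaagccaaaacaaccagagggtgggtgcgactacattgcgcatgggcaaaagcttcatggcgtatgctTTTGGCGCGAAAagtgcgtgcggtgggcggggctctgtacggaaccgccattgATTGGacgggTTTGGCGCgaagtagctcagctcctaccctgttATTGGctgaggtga
Mcm3 held 3 CCAAT boxes and 0 matches to the E2F letters, Mcm5 held 2 of each, and Mcm6 held 2 CCAAT boxes and 3 E2F matches. Windows were found for 5 of the 6 Mcm genes, 6 windows in all, of which 6 held CCAAT and 3 the E2F letters. Of the 15 windows found for 14 of the 18 proliferation genes, 12 held CCAAT and 2 the E2F letters. The genes named by ratio did not share this. Of 19 windows of the 15 lowest genes, 6 held CCAAT (31.6%) and 1 the E2F letters. Of 15 windows of the 15 highest genes, 3 held CCAAT (20%) and 0 the E2F letters. Among all 32851 windows of that length, 33.8% held CCAAT and 1.86% the E2F letters. A match describes letters in the window and no binding.

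**Figure D4:**
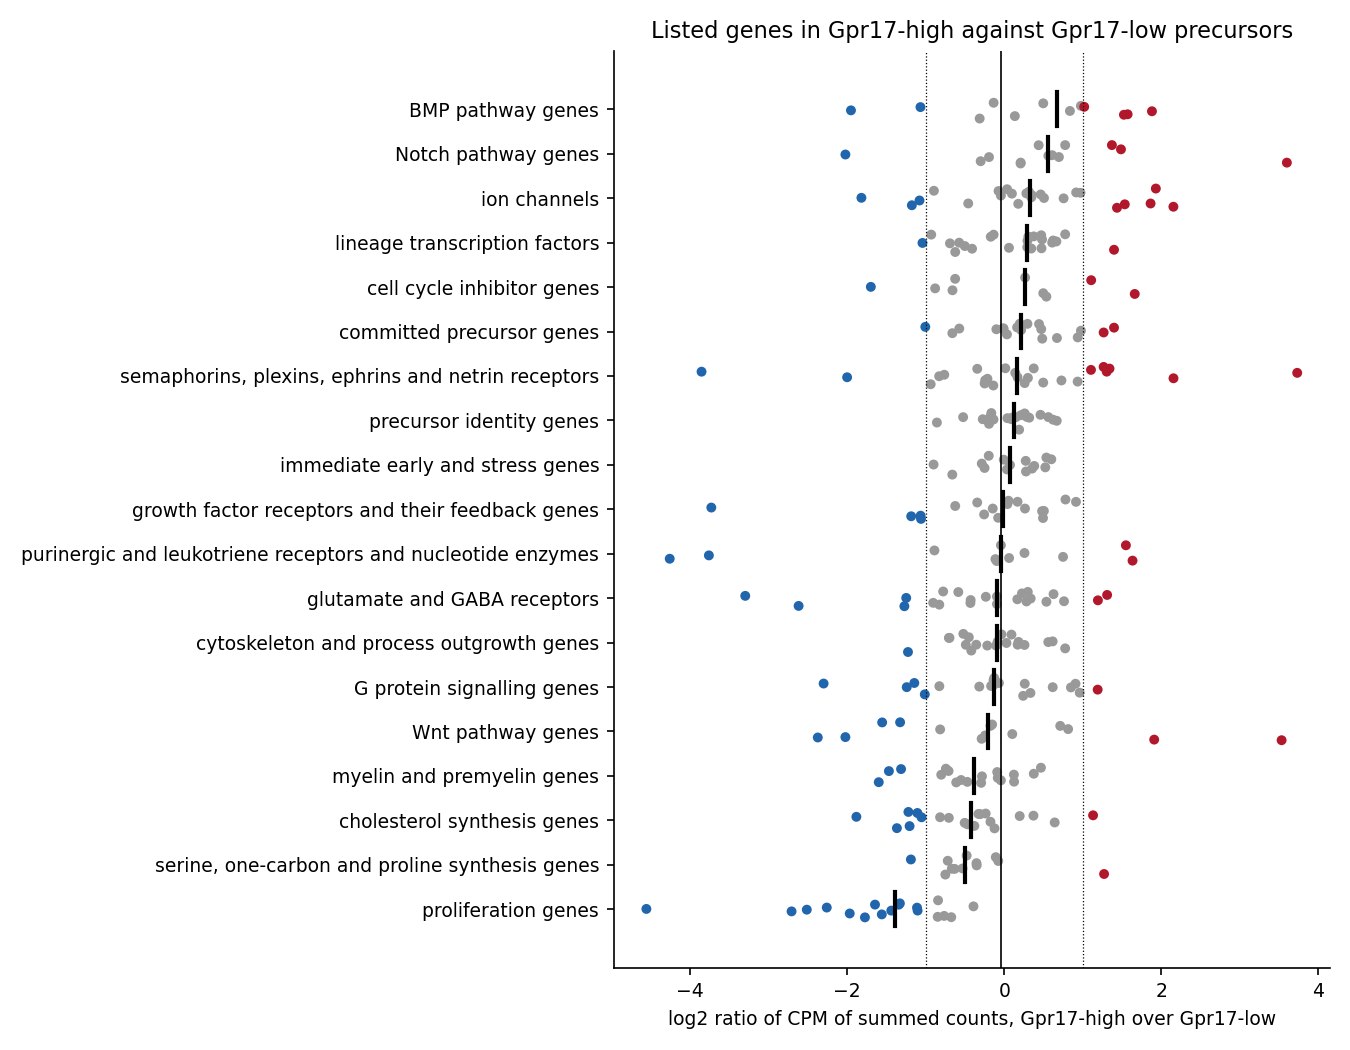
Log2 ratio of summed CPM, Gpr17-high over Gpr17-low, for each member with at least 10 CPM of the 19 functional lists. Points are genes, red or blue beyond the dotted 2-fold lines, and bars are list medians, which run from 0.67 for the BMP pathway to -1.39 for the proliferation genes, against a thin line at the all-gene median of -0.04.

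Genes of the next stage, commitment to differentiation, gave counts that did not stand far from the shares over all genes. Of 19 committed precursor genes at 10 CPM, 2 were 2-fold higher and 1 lower (median log2 ratio 0.22), against 13.2% and 14.4% of all genes. Sema5a, a guidance protein, had 239, 138 and 98.8 CPM in high, middle and low cells, and Mycl, a Myc family factor, 212, 58.5 and 79.9 CPM. Parm1 was lower, at 7.16 against 15.4 CPM. Neu4, a sialidase of the lineage, did not pass 2-fold, at 1286 CPM (1269 to 1304) in high, 1028 CPM in middle and 807 CPM (793 to 822) in low cells. Bmp4, Fyn and Nfasc, picked from the list, stood at 552, 2001 and 2823 CPM in the committed wells. They had 32.9, 180 and 248 CPM in the high precursors and 16.2, 193 and 249 CPM in the low ones. Lims2, of the same list, was less far apart, at 797 CPM in the committed wells and 371 CPM in the high precursors. Gpr17 itself ranked the precursors, and Enpp6 separates precursors from committed wells by rule. These differences from the committed wells are therefore a description only.

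Of 18 myelin and premyelin genes, 3 were 2-fold lower and 0 higher in the Gpr17-high cells, against 14.4% and 13.2% of all genes. The median log2 ratio was -0.38 here and 0.29 in the other wells of the series. The 3 were Ermn, a cytoskeletal protein of mature oligodendrocytes (11.7 against 37.6 CPM), Gpr37, an orphan receptor (29.6 against 83.6 CPM), and Trf, transferrin (105 against 263 CPM). Mbp, a main protein of myelin, stood at 1426 against 1747 CPM. A few cells carried most of the low group's reads, as the highest low cell reached 6357 CPM of Trf and 2017 CPM of Gpr37 against medians of 115 and 29.5 CPM. With the highest cell of each group left out gene by gene, 0 of the 18 were 2-fold lower and the median was -0.41.

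Of 23 lineage transcription factors, 1 was higher (Mycl) and 1 lower (Nkx6-2, 13.2 against 28.3 CPM), with a median of 0.30. Over all genes, 13.2% were higher and 14.4% lower. Sox8 had 809 against 510 CPM and did not pass 2-fold.

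Among the relatives of Gpr17, 11 of 19 purinergic and leukotriene receptor and nucleotide enzyme genes reached 10 CPM, with 2 higher, 2 lower and a median of -0.04. P2ry1 was higher, at 40.7 against 13.3 CPM, and P2ry2 lower, at 0.716 against 31.8 CPM. Adora1, an adenosine receptor, had 348 against 376 CPM. Genes of G protein signalling, through which the receptor acts, gave 1 higher and 4 lower of 19, with a median of -0.13. The inhibitory subunit genes Gnai1, Gnai2 and Gnai3 had log2 ratios of 0.62, -0.14 and -0.13. Gnao1 was lower at 68.5 against 153 CPM, and so was Rapgef3, a cyclic AMP sensor also known as Epac, at 70.3 against 143 CPM. Neither the share higher nor the share lower in these lists stood far from the background over all genes.

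The signalling pathways of precursors gave mixed counts. Over all genes, the background for each list below, 13.2% were higher and 14.4% lower. In the BMP list 4 of 12 genes were higher and 2 lower, and the median was 0.67 here but -1.33 in the other wells of the series. The largest of the higher genes by level was Bmp7, at 397 CPM in high, 189 CPM in middle and 195 CPM in low cells. In the Notch list 3 of 13 were higher and 1 lower. The median was 0.56, but 0.12 over the same genes with means of single-cell CPM. Hey1, Hey2 and Nrarp, targets of Notch, were the 3, at 93.5 against 35.5 CPM, 20.9 against 0.812 CPM and 98.5 against 34.5 CPM, while the targets Hes1 and Hes5 and the receptor Notch1 did not pass 2-fold. In the Wnt list 2 of 14 were higher and 4 lower (median -0.21), and the feedback gene Axin2 was lower at 8.89 against 28.0 CPM.

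Growth factor receptors and their feedback genes had 0 higher and 4 lower of 18, with a median of -0.02. The 4 were Igf1r (4.23 against 68.3 CPM), Insr, Fgfr2 and Spry4, an inhibitor of receptor signalling (89.2 against 187 CPM). Ion channels had 5 higher and 3 lower of 24, against 13.2% and 14.4% of all genes, with a median of 0.33. The higher ones were Kcnd3, a potassium channel (74.5 against 16.0 CPM), and the calcium channel genes Cacna1a, Cacna1c, Cacna1d and Cacna2d1. The sodium channel genes Scn1a and Scn3b were among the lower ones. Glutamate and GABA receptors had 2 higher and 4 lower of 23, with a median of -0.09.

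Semaphorins, plexins, ephrins and netrin receptors had 6 higher and 2 lower of 25, against 13.2% and 14.4% of all genes. The median was 0.17, and it became -0.18 with means of single-cell CPM and -0.16 in the other wells of the series. Plxna3, a semaphorin receptor, had 145 CPM in high, 99.7 CPM in middle and 31.8 CPM in low cells, and thinned reads in 54.4% against 33.3% of cells, but its log2 ratio in the other wells was -3.22. The cytoskeleton list had 1 lower of 20, Stmn1, a microtubule destabiliser that is often high in dividing cells (71.1 against 167 CPM), with a median of -0.09.

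Cholesterol synthesis genes, which feed membrane growth, had 1 higher and 6 lower of 20, against 13.2% and 14.4% of all genes. The median was -0.42, and it became -0.14 without the 92 cells of the broader proliferation rule and 0.40 in the other wells of the series. Insig1, the sterol sensor, was the clearest by level, at 130 CPM in high, 201 CPM in middle and 337 CPM in low cells, and thinned reads of it were in 63.2% against 91.2% of cells. Hsd17b7, Mvd, Idi1 and Nsdhl were also among the lower genes. Serine, one-carbon and proline synthesis genes had 1 higher (Asns) and 1 lower (Aldh18a1) of 12, with a median of -0.50. Cell cycle inhibitor genes had 2 higher and 1 lower of 9, with a median of 0.27, the lower one being Cdkn1a at 20.3 against 68.0 CPM. Immediate early and stress genes, which respond to tissue digestion, had 0 in either direction of 15, with a median of 0.07.

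Markers of other cell types were measured in the same cells. At least 3 mature oligodendrocyte markers reached 20 CPM in 162 of the 173 precursors, 53 of 57 in each compared group, and their summed level ran from 108 to 3596 CPM in high and from 116 to 10225 CPM in low cells. Of the 6, 1 was lower and 0 higher. Over all genes, the background for each marker list here, 13.2% were higher and 14.4% lower. Neuron markers gave 2 higher and 1 lower of 5, astrocyte markers 0 and 1 of 5, endothelial markers 1 and 1 of 2, fibroblast markers 0 and 0 of 3, choroid plexus markers 0 and 1 of 2, erythrocyte genes 0 and 0 of 1, and no mural marker reached 10 CPM. The microglia list had 1 gene at 10 CPM, Csf1r, at 5.01 against 18.5 CPM, and its summed level reached 115 CPM in a high and 292 CPM in a low cell. Cells with at least 3 neuron markers at 20 CPM numbered 0 in high, 8 in middle and 5 in low, and the summed neuron level ran from 0 to 1840 CPM in high and from 0 to 1402 CPM in low cells. Their part in the ratios was not tested beyond leaving cells out. With the 124 cells kept that lacked 3 markers of any lineage but oligodendrocytes, the proliferation median was -1.54 with 14 of 18 genes lower. More genes were lower over all in that setting, 2061 against 1653 in the main comparison.

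The genes with the widest ratios were named by a rule that asked for thinned reads in at least 30% of the higher group's cells and for 2-fold in both summed and mean single-cell CPM. It left 182 higher genes (3.05%) and 254 lower genes (4.26%) of 5964. The middle group lay between the others for 144 of the 182 and 189 of the 254. The genes were chosen for a wide gap between the high and low groups. That choice favours a middle position for the third group, so these counts support nothing.

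The 15 highest ran from a log2 ratio of 2.15 to 3.29. Ezh1, a histone methyltransferase of Polycomb complexes, led with 82.7 CPM (78.4 to 87.2) in high, 15.6 CPM in middle and 7.58 CPM (6.24 to 9.12) in low cells. Its single-cell medians were 5.04 and 0 CPM, and single cells reached 715 CPM in high and 192 CPM in low. B3gnt7, a glycosyltransferase of keratan sulfate chains, had 103 CPM (98.6 to 108) against 10.1 CPM (8.53 to 11.8). Fbxo18, Lime1, Snx18, Galk2, Fam53b, Flad1, Arhgap24, Ethe1, Uhrf2, Hars2, Ptcd2 and Plxna3 were among those that followed. Lime1 shares 92.5% of its exon bases with Zgpat and Flad1 43.8% with Lenep, both on the same strand, so the values of these 2 are uncertain. Thinned reads of the 15 were found in 31.6 to 54.4% of the high cells.

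The 15 lowest ran from -4.91 to -2.37. Tmem186, a mitochondrial protein gene, had 2.27 CPM (1.60 to 3.11) in high, 37.0 CPM in middle and 96.9 CPM (91.9 to 102) in low cells. A single low cell reached 1303 CPM while the low median was 2.81 CPM. Mcm4, Mcm2 and Mcm6 stood among them together with Cdk5rap2, a centrosome protein (14.0 against 84.0 CPM). Stx2, Wsb2, Slc7a6, Micall1, Lzts2, Arrb1, Ago1, Gss, Sgsm3 and Pacs2 made up the rest. Arrb1, a beta-arrestin that binds activated G protein-coupled receptors, had 15.0 against 99.6 CPM.

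The same rule was applied to the other wells of the series, sets 1025s_182s and 613s, which held 20 and 25 precursors and gave 14 Gpr17-high and 14 Gpr17-low cells when ranked within each set. Gpr17 was at 0 reads in 7 of these 14 low cells, and summed levels were 1542 CPM in high and 79.7 CPM in low cells. Of the 182 higher genes, 177 reached 10 CPM there and 106 had a ratio in the same direction, 58 of them beyond 2-fold. Of the 254 lower genes, 239 reached 10 CPM and 122 had the same direction, 68 beyond 2-fold. The lower genes were thus split almost evenly between the directions. In these few cells 3247 genes passed 2-fold higher and 3056 lower in all, against 1523 and 1653 in the first set. The share of all genes that this makes up there is not given. The counts beyond 2-fold in these sets therefore have no background beside them and support nothing.

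**Figure D5:**
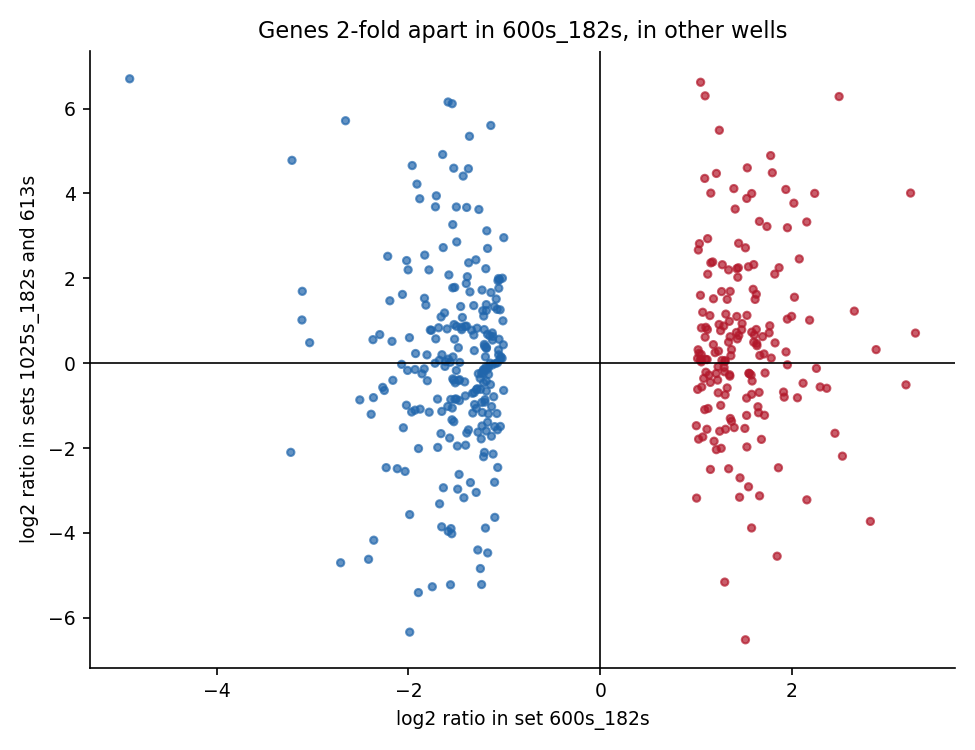
Log2 ratio, Gpr17-high over Gpr17-low, of the genes named 2-fold apart in set 600s_182s (horizontal axis) against the ratio in the 14 high and 14 low precursors of sets 1025s_182s and 613s (vertical axis). Red points are higher and blue points lower genes in the first set, and both colours spread on either side of 0, with 106 of 177 red and 122 of 239 blue points on the same side.

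Several of the leading genes did not keep their ratio in the other sets. Sh3bp4 stood at 371 against 381 CPM there, a log2 ratio of -0.04, and Mfsd2a at 476 against 628 CPM, -0.40, with a rho of -0.05 over the 45 precursors. Ccnd2 kept its direction, at 116 against 260 CPM, as did Tmem255b, at 334 against 216 CPM, and Timp3, at 436 against 367 CPM. Ccnd1 had 795 against 869 CPM. The proliferation list gave 4 higher and 6 lower of 15, with a median of -0.77, and the median rested on 28 cells. The cells marked as being in S or M phase numbered 3 there, with a Gpr17 median of 538 CPM against 432 CPM in the other 42. Marked cells thus had the higher Gpr17 median there and the lower one in the first set, but only 3 were marked. The broader rule also went the other way than in the first set. It marked 8 of 14 high cells (57.1%, 28.9 to 82.3%) and 4 of 14 low cells (28.6%, 8.39 to 58.1%). The Gpr17 median was 581 CPM in its 26 marked cells and 297 CPM in the 19 other cells.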

How the data were processed

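SMART-seq2 reads of 1152 sorted wells were used as the authors deposited them, as raw whole-number counts per gene. Per the submitters' processing notes, reads went through TopHat2 (2.1.1), SAMtools (0.1.18) and featureCounts from Subread (1.4.6-p5) on the mouse builds GRCm38 and mm10. Which annotation and strand option were used, and how multimapping reads were treated, is not given in the sources used here, so overlapping genes and near-identical copies may share reads.

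The members and gene lists were chosen with earlier results of these data known, and they give no independent support. Counts were summed over the cells of a group and divided by the summed total (CPM). Groups were compared as log2 ratios with 1 CPM added, called at 2-fold with at least 10 CPM in the higher group. Intervals are exact Poisson for levels and Clopper-Pearson for shares. Shares of cells with reads were taken after thinning each cell to 50000 reads. No p-value was computed, as all wells are 1 sample, and no doublet caller was run.

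Named genes were the 15 highest and 15 lowest ratios among genes with at least 20 CPM and thinned reads in at least 30% of cells of the higher group, a larger share of such cells there and a 2-fold ratio of mean single-cell CPM, then the 10 highest and 10 lowest by Spearman rho with Gpr17, and all members of 28 lists, some of which are not reported here. Pseudogene-like symbols and the genes of the selection were left out of the ranking. Coordinates come from GENCODE vM21, in which 42052 of 46517 symbols matched (90.4%), and promoter windows from RefSeq GRCm38.p6. The code was tested on simulated data and ran in Python 3.11.15 with numpy 2.4.6, scipy 1.17.1, pandas 2.3.3 and matplotlib 3.10.9.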

Additional observations from a re-analysis of the deposited data

How the results depend on the processing

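The count of 1523 higher and 1653 lower genes moved by over 1.5 times under a minimum of 50 CPM (557 and 550), with no filter (2430 and 2757), in sets 1025s_182s and 613s (3247 and 3056) and, for the higher genes, without the 92 cells of the broader cycling rule (2474, with 2403 lower). These settings compare more or fewer genes, or fewer cells. In the other sets 359 of the 1523 higher (23.6%) and 438 of the 1653 lower genes (26.5%) were called again. The share of all genes called there is not given, so these shares have no background. Among named genes past 2-fold that reached 10 CPM, all reversals arose in those sets: log2 ratios became -0.51 for Fbxo18, -3.73 for Snx18, -2.19 for Fam53b, -1.65 for Arhgap24, -0.59 for Ethe1, -0.56 for Uhrf2, -0.12 for Hars2, -3.22 for Plxna3, -0.40 for Mfsd2a, -0.038 for Sh3bp4 and -1.60 for Prkcq, and 6.70 for Tmem186, 4.78 for Stx2, 1.02 for Wsb2, 1.69 for Slc7a6, 0.48 for Lzts2, 5.71 for Arrb1 and 0.56 for Pacs2, while the rho of Mfsd2a became -0.053. Ratios under 2-fold also changed sign there, to -0.44 for Traf4, 0.23 for Ptma and 0.080 for Rps15, and Mcm6, under 10 CPM there, had 1.82. Lims2 had -0.082 without the 92 cells. The cause was not tested. Over the alternatives run on set 600s_182s, the log2 ratio ran from 1.06 to 1.56 for Mfsd2a, 1.16 to 2.36 for Sh3bp4, -3.44 to -1.17 for Ccnd2 and -0.92 to -0.51 for Ccnd1. Of the log2 ratios of named genes under all alternatives, 295 stayed within their counting interval, 416 moved out of it and 18 reversed. Of the list medians, 271 stayed within the interval of the reported median over list members and 14 moved, 7 of them in the other sets. That interval is wide for some lists, as from -3.76 to 1.55 for the purinergic and leukotriene list, so staying within it is a weak criterion. The cholesterol median became -0.14 without the 92 cells and 0.40 in the other sets, the myelin median 0.29 and the BMP median -1.33 in the other sets. Leaving out every cell with markers of any other lineage could not be run, as 7 cells remained. The alternatives without the 21 cells in S or M phase and without cells of lineages other than oligodendrocytes were chosen after seeing the data. No paired analysis was possible because the wells form 1 sample and the groups share no replicate numbers. The share of genes past 2-fold was 27.6% from 10 CPM up and 4.89% from 200 CPM up, and the cause of that difference was not tested.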

Other observations

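Further genes with at least 200 CPM in the higher group lay beyond 2-fold, where 34 (3.08%) of 1104 genes were higher and 20 (1.81%) lower. The following were picked from their values after these were seen, and their ratios in the other sets are not reported here. Myo5a, a myosin that carries vesicles along actin, had 243 CPM in Gpr17-high, 178 CPM in middle and 80.5 CPM in Gpr17-low precursors. Npc1, which moves cholesterol out of lysosomes, had 330 CPM, 221 CPM and 149 CPM. Brinp3 had 401, 345 and 194 CPM with rho 0.25. On the other side, S1pr2, a receptor for sphingosine-1-phosphate, had 97.3, 221 and 248 CPM with rho -0.22. Eif4b, a factor of translation initiation, had 75.0, 195 and 218 CPM.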
